A study of Mus musculus with 18 samples.

Results

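The regions described here are stretches of the mouse genome inside protein-coding genes, away from the gene ends, where ATF4 peaks were called after 2-deoxyglucose (2-DG) and not in untreated neurons. They were chosen by the deposited peak lists themselves: peaks of 8 lists were merged where they shared at least 1 bp, and a region was kept if at least 3 of 4 2-DG lists and no control list had a peak in it. It also had to overlap a gene body (mm10) and lie outside every window of 2000 bp on either side of a gene end. The rule found 582 of 35717 merged regions, or 4.35% of the 13390 that lay inside gene bodies. The reverse pattern, 3 or 4 control lists and no 2-DG list, was met by 14 (0.105%). Because the members were selected on these calls, neither count is a test of the treatment.

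Chromatin immunoprecipitation with sequencing was done on primary immature neurons from E14 mouse embryos after 2 days in vitro. The 4 control samples were untreated, and the 4 2-DG samples received 10 mM 2-DG for 6 h. The antibody label reads None for the control samples and names an ATF4 antibody for the 2-DG samples, whereas by the series design both had it, so treatment and antibody cannot be told apart. The series has 18 samples, of which 8 are inputs not used here and 2 have peak lists with conflicting labels, described last. According to the design there were 3 independent replicates, but the labels do not tie the lists to separate cultures, so the spread between lists may be technical. The lists held from 3461 to 15240 peaks and gave no read counts, so the depth is unknown and the absence of a peak says only that the caller made no call there.

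ATF4 is a basic leucine zipper (bZIP) transcription factor whose translation rises when the integrated stress response is active, for example when the endoplasmic reticulum is stressed or amino acids run short. It pairs with C/EBP and other bZIP proteins and is best known for sites in the promoters of genes for amino acid supply and stress adaptation. It can also bind within genes, in introns or at transcript starts that lie inside a longer gene. The sugar analogue 2-DG interferes with glycolysis and with the attachment of sugars to proteins in the endoplasmic reticulum. The C/EBP-ATF composite element, written here as TGATGNAA, joins an ATF-type and a C/EBP-type partial site.

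Sequence could be read for the few members that lay on an annotated transcript start inside their host gene. The RefSeq (GRCm38.p6) windows used here run from 250 bases before to 50 bases after a start. They cover 391 of the 520 host genes (75.2%), so starts of the other hosts were not searched. The mean peak summit of 10 members fell in such a window, and 7 of those windows held TGATGNAA on either strand. The stretches below show the element beside the summit in 5 of them. They also show 1 window that held only a related form, and that of the highest-ranked member whose window held neither. Each is written on the strand of the transcript, and capitals mark TGATGNAA or its reverse complement TTNCATCA. In Pafah1b2 they mark TGANGCAA, which was searched after the values were seen.

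Eps15, chr4:109342888-109342987, plus strand: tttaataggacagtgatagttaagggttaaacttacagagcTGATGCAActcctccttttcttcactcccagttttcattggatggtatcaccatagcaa
Creb5, chr6:53573249-53573348, plus strand: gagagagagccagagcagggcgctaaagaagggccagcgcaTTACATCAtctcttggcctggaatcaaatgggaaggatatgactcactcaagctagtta
Ppp1r10, chr17:35919084-35919183, plus strand: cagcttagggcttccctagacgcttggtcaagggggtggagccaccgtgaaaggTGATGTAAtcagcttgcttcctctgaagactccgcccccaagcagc
Gm9936 within 4930519G04Rik, chr5:114859378-114859477, minus strand: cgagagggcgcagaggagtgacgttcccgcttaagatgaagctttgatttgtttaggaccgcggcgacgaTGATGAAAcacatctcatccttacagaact
Gm36111 within Tbc1d16, chr11:119191901-119192000, plus strand: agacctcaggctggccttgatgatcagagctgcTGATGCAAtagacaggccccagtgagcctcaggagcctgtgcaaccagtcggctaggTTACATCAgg
Pafah1b2, chr9:45985365-45985464, minus strand: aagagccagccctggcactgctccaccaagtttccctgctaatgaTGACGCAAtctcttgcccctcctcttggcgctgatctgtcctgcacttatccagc
Pde4dip, chr3:97767985-97768084, minus strand: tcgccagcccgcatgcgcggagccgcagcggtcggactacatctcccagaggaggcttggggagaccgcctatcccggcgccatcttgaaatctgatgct

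In the Eps15 stretch the mean summit of the 4 lists was base 56, and in Creb5 it was also base 56. It was base 43 in Ppp1r10, base 89 in Gm9936, base 84 in Gm36111, base 56 in Pafah1b2 and base 94 in Pde4dip.

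The members differed widely in how high their peaks stood. The height of a peak is given as the authors' fold enrichment over the local background, and because lists differ in length and scale, each fold was ranked within its own list as a percentile. Averaged over the lists that called a member, this percentile had a median of 77.0 and ran from 11.8 to 98.8. A mean percentile above 95 was reached by 47 members, all of them called in 4 lists, and 56 members were below 50, of which 54 were called in 3 lists. Of the 582, 275 were called in 4 lists and 307 in 3. These values come from the peaks that chose the members and are given as a description.

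The highest member lay in Ankrd45, an ankyrin repeat gene, at chr1:161151048-161151771. Its fold was 64.3, 50.9, 19.1 and 24.2 in 2-DG replicates 1 to 4, and its summits lay within 17 bp of each other. The next, in Smarca2, which encodes an ATPase of the SWI/SNF chromatin remodelling complex, had 60.3, 43.7, 17.6 and 25.5 at chr19:26675543-26676066, 70470 bp from the nearest gene end. In both, replicates 1 and 2 gave the higher folds and replicates 3 and 4 the lower ones, and all 4 values lay above the 97th percentile of their lists. Trim66, a gene of the tripartite motif family, had folds of 54.7, 45.5, 18.6 and 19.9. Tsc22d3, which encodes the glucocorticoid-induced leucine zipper protein GILZ, had 49.8, 41.6, 17.6 and 22.2.

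Nfil3, a bZIP transcriptional repressor gene, held a member of 809 bp at chr13:52976573-52977381 with folds of 45.2, 27.4, 17.6 and 21.2. Eps15, an endocytosis adaptor gene, had 51.0, 37.7, 14.2 and 20.9, with summits within 5 bp, beside the element shown above. Pde4dip, which encodes the scaffold protein myomegalin, had 35.3, 27.0, 15.7 and 16.9. The other 8 of the 15 highest members lay in A830018L16Rik, Nhlrc2, Nisch, Mef2b with Gm45929, Slc14a2, Zfp516, Ldb2 and Ubr2. Nisch encodes nischarin, Mef2b a transcription factor of the MEF2 family, Slc14a2 a urea transporter, Ldb2 a cofactor of LIM-domain transcription factors and Ubr2 a ubiquitin ligase. The widest member of all, 1208 bp, was the one in Mef2b and Gm45929. Replicate 3 gave the lowest fold in 13 of these 15, and replicate 4 in Zfp516 and Ubr2.

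**Figure D1:**
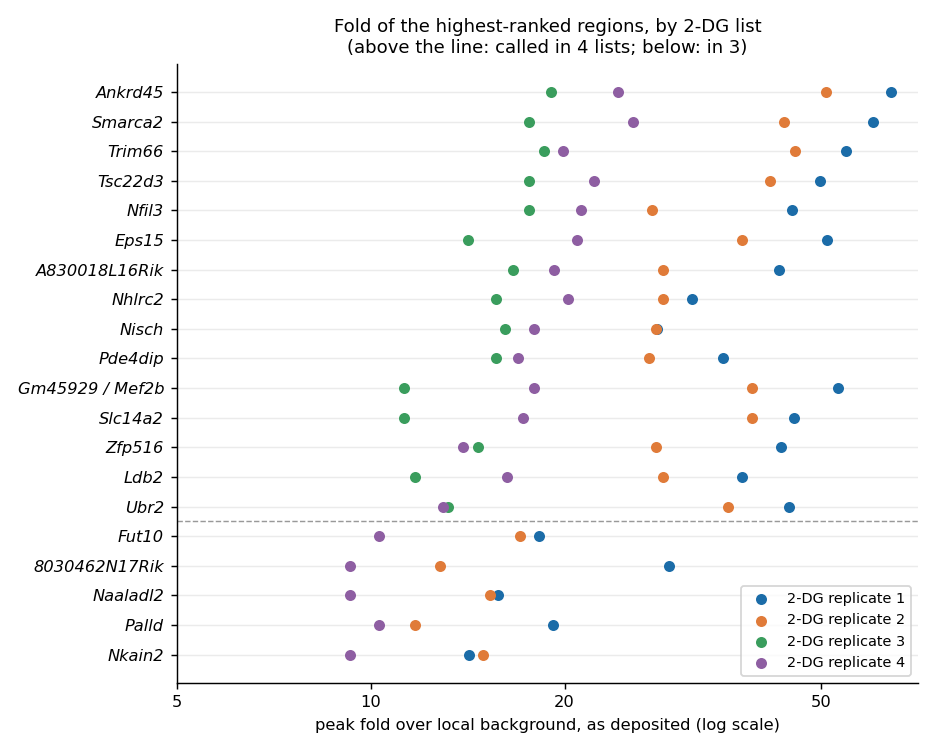
Fold over local background, as deposited, of the 15 highest-ranked members called in 4 2-DG lists (above the dashed line) and the 5 highest called in 3 (below), on a log axis with 1 point per list. Ankrd45 runs from 19.1 to 64.3, and none of the 5 lower members has a point for replicate 3.

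Each member called in 3 lists lacked a peak in 1 list, most often 2-DG replicate 3. Of the 307, 245 were missing from 2-DG replicate 3, 44 from replicate 4, 13 from replicate 2 and 5 from replicate 1. The lists thus touched 577, 569, 337 and 538 members. The 5 highest members of this class lay in Fut10, 8030462N17Rik, Naaladl2, Palld and Nkain2, and all 5 were missing from replicate 3. Fut10, a gene of the fucosyltransferase family, had folds of 18.2, 17.1 and 10.3 in replicates 1, 2 and 4, above the 91st percentile of each list. Palld, which encodes the actin-binding protein palladin, had 19.2, 11.7 and 10.3.

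Members were 109 to 1208 bp wide, with a median of 380 bp. The median was 471 bp in 4 lists and 325 bp in 3, but a member is the union of its peaks, so each list that calls it can only widen it. Summits of the lists had a median spread of 45.5 bp, with 489 members (84.0%) within 100 bp. Merged peaks overlap, which by itself limits the spread, and no other class of region was set beside it. The nearest gene end was 36147 bp away in the median member, and from 2038 to 962090 bp. The farthest lay in Dlg2, which encodes a postsynaptic scaffold, followed by Ptprd (951627 bp, with another member at 591649 bp), Lrp1b (903126 bp) and Rbfox1 (696954 bp). Those just inside the 2000-bp limit lay in Spdye4b (2038 bp, mean percentile 38.4), Hlcs (2053 bp, 74.1) and Epc1 (2068 bp, 92.6). Just outside it, regions that met the rule otherwise lay at Rars (1957 bp, 58.0), Il12b (1869 bp, 85.0) and Rims3 (1834 bp, 85.3).

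Peaks in gene-body members were compared with those of 216 regions at gene ends and 626 between genes that met the same rule on lists. The median within-list percentile of gene-body members was 93.4, 85.6, 75.5 and 69.5 in 2-DG replicates 1 to 4, and that of gene-end regions was 93.4, 85.6, 75.5 and 73.8. These medians were equal in 3 lists and differed in replicate 4, but many peaks share the same fold, so medians can tie. The share of peaks below the median of their list was 5.72%, 11.1%, 32.9% and 27.7% in gene bodies. At gene ends it was 2.79%, 8.02%, 28.7% and 22.9%, lower in each list, which was not tested. The mean difference was -1.09 ± 2.18 percentile points (SD, n = 4 lists, two-sided exact sign-flip permutation p = 1), and 0.08 to 0.34 points without 2-DG replicate 2, 3 or 4. Between genes the medians were 92.0, 83.2, 64.8 and 64.1, lower than in gene bodies in 4 of 4 lists. The mean difference was 4.97 ± 4.15 points (SD, n = 4 lists, two-sided exact sign-flip permutation p = 0.125). With 4 lists 0.125 is the smallest p this test can give, so no such difference could pass 0.05. The second difference was -0.24 points among peaks with -log10 q of at least 5, 0.14 points for regions called in all 4 lists and 0.08 points without 2-DG replicate 2.

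Peaks in gene-body members were intermediate in width. The median peak in a gene-body member was 346, 316, 185 and 195 bp wide in the 4 lists. That was 11.1 ± 5.89 bp narrower than at gene ends and 15.2 ± 4.99 bp wider than between genes (SD, n = 4 lists, exact sign-flip permutation p = 0.125 each, same direction in 4 of 4 lists). The difference from between-gene regions turned to -2.12 bp for regions called in all 4 lists and -3.38 bp at -log10 q of at least 5, and was 0 bp without 2-DG replicate 1 and 1.33 bp without replicate 2. The difference from gene ends kept its sign in all alternatives tried, at 5.0 bp narrower without 2-DG replicate 1 and 4.5 bp narrower in regions of all 4 lists.

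Among regions with no control peak, fold rank was lower where fewer 2-DG lists called the region. Rank and number of lists come from the same peak calls, so this is a description and no test. Inside gene bodies, the median mean percentile was 86.4 for regions in 4 2-DG lists, 68.9 in 3, 54.9 in 2 (953 regions) and 32.4 in 1 (5738 regions), in each case without a control list. A further 35 regions were in 4 2-DG lists and 1 control list, at a median of 92.1, and 49 were in 3 and 1, at 46.8. Of these 84, the control peak came from replicate 4 in 33, replicate 1 in 29, replicate 3 in 17 and replicate 2 in 5. The region inside Bdnf, a neurotrophin gene named in the series title, is one of the 35 and therefore no member. It lay at chr2:109677958-109678536.

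The 582 members lay in 520 host genes, which is 2.4% of 21631 protein-coding genes. A single member was held by 466 hosts, 41 hosts held 2, 12 held 3 and 1 held 4, while 6 members lay in a pair of overlapping genes and count for both. Hosts were long, with a median of 163808 bp against 17329 bp for all genes, and of genes of at least 100 kb 335 (13.8%) held a member. The share of genes with a member was 0.206% below 20 kb, 1.21% from 20 to 50 kb, 3.98% from 50 to 100 kb, 7.38% from 100 to 200 kb, 17.8% from 200 to 500 kb and 41.0% from 500 kb up. Per megabase (Mb) of gene body outside the end windows, the same classes held 0.482, 0.441, 0.616, 0.596, 0.692 and 0.686 members, beside 0.612 over all. The share of genes thus differed by far more than the density. Regions called in 1 2-DG list alone had densities of 6.04, 6.11, 5.79, 6.35, 6.53 and 5.37 per Mb in these classes. Regions called in 1 control list alone had 5.36, 4.98, 4.67, 4.25, 4.72 and 3.56 per Mb, lowest in the longest genes, where members had 0.686.

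**Figure D2:**
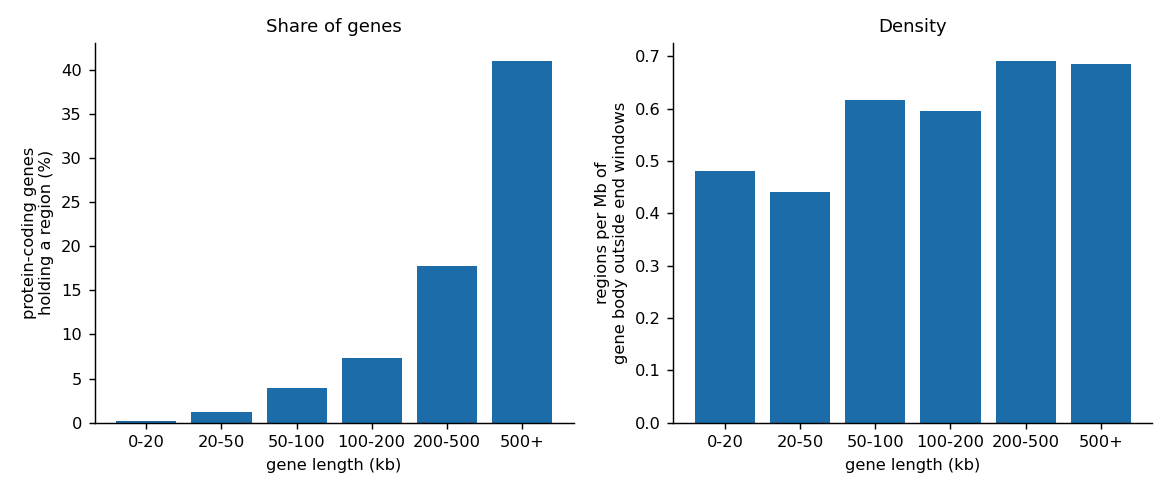
Percent of protein-coding genes that hold a member (left) and members per Mb of gene body outside the end windows (right), by gene length in kb. The share runs from 0.206% to 41.0%, while the density stays between 0.441 and 0.692 per Mb.

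Members were sparse on the X chromosome, which held 7, or 0.166 per Mb of eligible gene body, against 0.383 (chromosome 1) to 1.07 (chromosome 18) on the autosomes. Regions in 1 2-DG list were sparse there too, at 1.38 per Mb against 5.33 to 7.72, and so were regions in 1 control list, at 1.04 against 4.09 to 6.09. The low value on X was therefore seen in regions of every one of these kinds. Chromosome 5 held the most members, 55 (0.902 per Mb). The 7 members on X included those in Tsc22d3 and in Slc7a3.

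The 13 hosts with 3 or more members were between 195377 and 1297160 bp long. Tenm2, which encodes a teneurin adhesion protein, held 4 members spread over a gene of 1230398 bp, with mean percentiles of 53.1, 72.5, 87.6 and 78.7. Adgrl3 (a latrophilin receptor), Cdh13 (T-cadherin), Kirrel3 (an adhesion protein), Auts2, Foxp1 (a forkhead transcription factor), Cacna2d1 (a calcium channel subunit), Pcca (a subunit of propionyl-CoA carboxylase), Pex5l and Rapgef2 (a Rap activator) held 3 each. So did Tenm3, and Slc24a2 and Tcf4, the last pair named after their values were seen. Neighbouring members of 1 gene lay 120797 bp apart in the median of 68 pairs, and 6 pairs were within 10 kb. The closest pair, 2620 bp apart, was in Tenm3. In Foxp1, members 8181 bp apart had folds of 25.1, 16.0, 9.29 and 12.3 in the 4 lists, and of 15.8, 9.60 and 5.31 in replicates 1, 2 and 4. The first stood higher in each list that called both.

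Members were counted in genes of the ATF4 pathway. None of the 37 genes in the list of known ATF4 targets held one in its body. Of the 37, 17 (45.9%) had a 2-DG-specific region at a gene end, beside 1.17% of all genes. The list was chosen with earlier results of these data known, and hosts placed in other lists, such as Psph and Slc7a3, are not in it. The bodies of the 37 have 0.662 Mb outside the end windows in all, which at the overall 0.612 members per Mb is room for less than 1 member. Of 39 bZIP stress factors 3 were hosts (7.69%), namely Nfil3, Nfe2l1 and Creb5, at 1.90 members per Mb, beside 2.4% and 0.612 per Mb over all genes. Nfe2l1, which encodes a bZIP activator of proteasome genes, had folds of 31.9, 21.0, 6.85 and 10.9. Creb5, a gene of the CREB family, had 11.4, 9.60, 6.85 and 5.64, the lowest of the bZIP members in all lists but replicate 3, where it equalled Nfe2l1.

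In 5 lists of protein quality control, amino acid supply and sugar metabolism 1 gene each was a host, which is 2.22% to 4.76% of their genes beside 2.4% of all. Sel1l, which encodes an adaptor of endoplasmic-reticulum-associated degradation, was the 1 host of 26 endoplasmic reticulum genes, with folds of 25.4, 21.7, 9.78 and 15.3 at 3005 bp from a gene end. Slc7a3, a cationic amino acid transporter gene, was the 1 host of 21 transporters, with 22.3, 16.0, 6.36 and 6.30. Psph, which encodes the phosphatase of the last step of serine synthesis, was the 1 host of 30 serine, one-carbon and proline enzymes, with 18.6, 14.6, 5.87 and 7.63. Fars2, the mitochondrial phenylalanyl-tRNA synthetase gene, held 2 members and was the 1 host of 36 synthetases. Pfkp, a phosphofructokinase gene of glycolysis, was the 1 host of 45 glycolysis, hexosamine and N-glycosylation genes, with 22.3, 12.4, 5.87 and 5.31. In all of these but Fars2 the member was called in 4 lists, and in Fars2 1 of the 2 was. Members per Mb were 1.55 in the endoplasmic reticulum list, 1.19 in the transporters, 0.931 in the serine, one-carbon and proline list, 1.39 in the synthetases and 0.682 in the sugar list, each resting on 1 or 2 members, beside 0.612 over all genes. Regulators of mTORC1 (25 genes), autophagy and lysosome genes (24), neurotrophins and their receptors (13) and activity-regulated genes (21) had 0 hosts. Their bodies outside the end windows come to 1.24, 1.45, 1.34 and 0.279 Mb, room for less than 1 member each at the overall density, so these counts are near the background.

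Neuronal genes of adhesion, guidance and signalling held most of the members found in the gene lists. These lists also had much of the gene body searched, at 40.7, 13.7 and 12.5 Mb outside the end windows. Of 49 synaptic adhesion genes 14 were hosts (28.6%) with 26 members, at 0.640 per Mb. Their median length was 856811 bp, and genes from 500 kb up as a class had 41.0% hosts. Negr1, a neuronal growth regulator gene, had the highest member of the group, with folds of 35.6, 22.1, 9.78 and 15.3. Tenm4 followed with 22.0, 19.6, 7.34 and 9.62.

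Of 42 axon guidance genes 13 were hosts (31.0%), each with 1 member, at 0.951 per Mb. Their median length was 217664 bp, and 17.8% of genes of 200 to 500 kb were hosts. The list spans other length classes too, with hosts from 46301 bp (Plxna1) to 1555468 bp (Robo2). From 500 kb up 41.0% of genes were hosts, so the class of the median is a rough match only. Epha6, an ephrin receptor gene, had folds of 50.1, 36.6, 11.7 and 12.6, and Nrp1, the semaphorin and VEGF co-receptor neuropilin 1, had 21.0, 15.3, 11.2 and 9.29. Dcc, Robo1, Robo2, Slit1, Slit3, Sema3a, Sema6d, Ntng1, Plxna1, Epha5 and Srgap2 were the other hosts, with mean percentiles from 49.9 (Robo2) to 86.8 (Dcc). Among these, Slit1, Slit3, Robo1 and Robo2 had mean percentiles of 60.5, 84.2, 64.4 and 49.9, and no ligand-receptor link is read from them.

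Of 44 genes of cAMP, calcium and MAPK signalling 9 were hosts (20.5%) with 12 members, at 0.959 per Mb. Pde4d, a cAMP phosphodiesterase gene, had a member with folds of 42.7, 20.3, 9.78 and 11.6 and another with 18.9, 17.1, 5.87 and 9.95. Camkk2, a kinase upstream of AMPK, had 23.8, 12.4, 6.85 and 10.3, and Adcy8, an adenylyl cyclase gene, had 20.4, 12.8, 5.87 and 10.6. Other hosts included Dgkb, Pde10a, Prkg1, Camk1d and Prkcb, from a mean percentile of 58.4 (Dgkb) to 78.0 (Prkg1).

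Ion channel genes had 7 hosts of 42 (16.7%, 0.668 members per Mb), namely Cacna2d1, Cacna2d3, Itpr1, Kcnh7, Kcnq5, Ryr2 and Ryr3. Glutamate and GABA receptor genes had 5 hosts of 31 (16.1%, 0.605 per Mb), among them Gabrb1, Grid1 and Grik2. Gabrb1, a GABA-A receptor subunit gene, had folds of 15.5, 12.8 and 7.63 in replicates 1, 2 and 4. Neuronal identity genes had 3 hosts of 32 (9.38%, 0.551 per Mb), namely Bcl11b, Rbfox1 and Ank2. The density of members in the synaptic adhesion, channel, receptor and neuronal identity lists lay within 0.551 to 0.668 per Mb, around the 0.612 over all genes, and that in the guidance and signalling lists was above it. These lists were chosen with earlier results of these data known, and nothing particular to a list is read from its count.

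Markers of other cells held 1 member, near the background of 2.4% of genes. Astrocyte, oligodendrocyte and progenitor markers (10 genes each) and vascular and fibroblast markers (12) had 0 hosts, in bodies of 0.295, 0.230, 0.0882 and 0.586 Mb. Of 10 microglia markers P2ry12 was a host, through a region called in 3 lists that also lies in Med12l, the gene that contains it. Peaks carry no expression level, so the labelled cell type could not be checked from these lists.

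**Figure D3:**
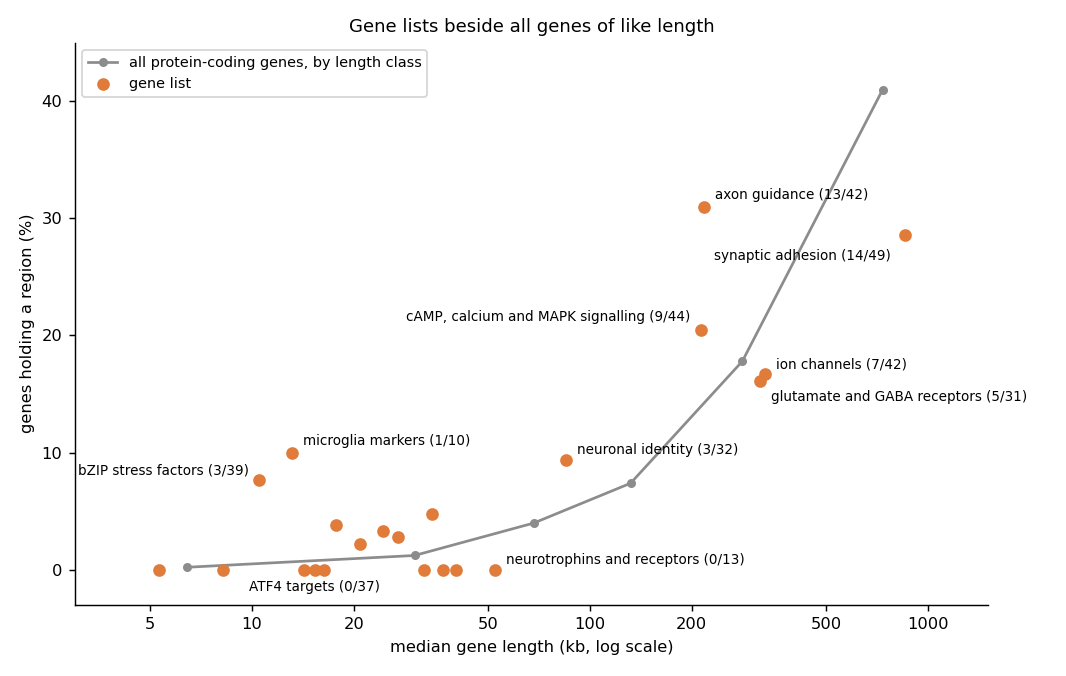
Percent of genes that hold a member against median gene length (kb, log axis), for each gene list (orange, hosts and genes counted in the labels) and for all protein-coding genes by length class (grey line). Each list is placed at its median length, though its genes differ in length. Axon guidance genes (31.0%), the signalling list (20.5%), neuronal identity genes (9.38%) and bZIP stress factors (7.69%) stand above the grey line. So do the lists with 1 host each, from microglia markers (10.0%) and amino acid transporters (4.76%) to the sugar list (2.22%). Synaptic adhesion genes (28.6%), ion channels (16.7%) and glutamate and GABA receptors (16.1%) stand below it, and ATF4 targets are at 0.

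Few hosts also had a region at a gene end. The 9 that did were Aebp2, Apbb2, Clic4, Galnt2, Mbnl2, Nfib, Tenm4, Tmx3 and Zfp385b, or 1.73% of the hosts and 3.56% of the 253 genes with such an end region. Over all genes 2.4% were hosts and 1.17% had an end region. Apart from Tenm4 these genes are named after their values were seen. Of all 582 members, 33 touched another annotated gene, a long non-coding RNA in 31. No share over all gene-body regions is set beside this count.

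At the few transcript starts inside gene bodies whose window held a mean summit, most windows also held the composite element. In all, 16 members touched a RefSeq start window, and in 10 the mean summit fell inside it. Of these 10 starts 8 belong to the host itself, in Eps15, Pde4dip, Pafah1b2, Clcn3, Smim10l1, Creb5, Arhgef2 and Ppp1r10, and 2 to Gm36111 and Gm9936, which lie inside other genes. Except for the genes that an earlier paragraph takes by rank or list, they are named after their values were seen. TGATGNAA was present in 7 of the 10 windows (70.0%, exact binomial 95% interval 34.8 to 93.3, counting error only) and in 1262 of all 32619 windows (3.87%). At gene ends, 20 of 49 windows that held the mean summit of a 2-DG-specific region had it (40.8%, interval 27.0 to 55.8). For gene-body regions in 1 2-DG list it was 4 of 10, in 2 lists 2 of 4, and in 1 control list alone 0 of 3.

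The middle of the element lay 10.5 to 56.5 bp from the mean summit in the 7 windows, with a median of 14.5 bp. In Eps15, summits of the 4 lists lay at bases 135, 140, 139 and 137 of the window, and the element at bases 124 to 131. In Creb5 they lay at bases 180, 145, 215 and 183, around an element at bases 167 to 174. In Ppp1r10, which encodes a regulatory subunit of protein phosphatase 1, they lay at bases 74, 133, 108 and 105, and the element at bases 117 to 124, with folds of 7.42, 8.54, 5.87 and 3.65. Summits were within 11 bp of each other in Gm9936 (bases 284, 288, 295 and 288), with folds of 12.7, 10.7, 6.36 and 6.97, and ran from base 221 to base 374 in Gm36111, with folds of 27.8, 17.8, 8.31 and 8.96. In Arhgef2 they lay at bases 291, 272, 162 and 295, and the element at bases 277 to 284. Summits of single lists can thus lie farther from the element than the mean summit does. In Smim10l1 the element was farthest, 56.5 bp from the mean summit.

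Pde4dip, Pafah1b2 and Clcn3, the last a chloride-proton exchanger gene, had no TGATGNAA in the window. Of these, Pafah1b2 and Clcn3 had TGANGCAA, a form that shares TGATGCAA with the first and was present in 5 of the 10 windows and in 3.69% of all windows. At least 1 of the forms was in 9 of 10, all but Pde4dip. TGANGCAA was added after the values were seen, and no share of all windows is set beside this combined count. At gene ends TGANGCAA was in 24 of 49 windows. For gene-body regions in 1 2-DG list it was in 4 of 10, in 2 lists 2 of 4, and in 1 control list alone 0 of 3. Its 5 of 10 was therefore not particular to members. In Pde4dip the mean summit was base 274 of the 300-base window, so part of the sequence beside it was not searched. The longer TGATGCAAT was in 1 of 10 windows (0.193% of all), that of Gm36111. The CRE palindrome TGACGTCA was in 0 of 10 (1.80% of all), the C/EBP palindrome TTGCGCAA in 0 of 10 (0.184%) and the AP-1 form TGANTCA in 1 of 10 (7.85%). A match is a description of the letters and no shown binding site. Members that touch no start window were not searched, since no genome of this build was used here.

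**Figure D4:**
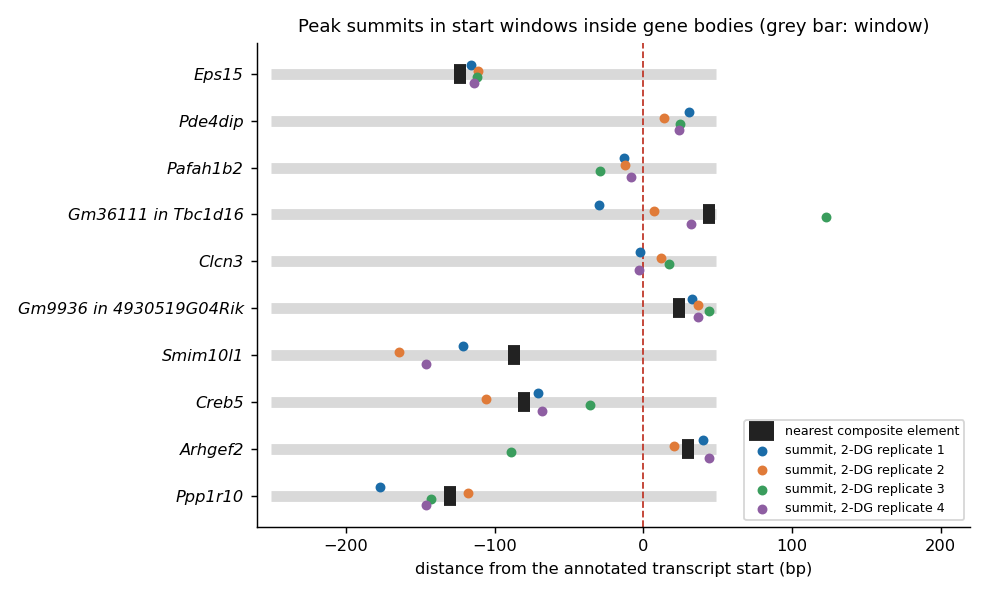
Distance in bp from the annotated transcript start (dashed line) of each 2-DG list's peak summit (points) and of the nearest composite element (black bar) in the 10 start windows (grey bars). The element lies a median of 14.5 bp from the mean summit in the 7 windows that hold it.

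The lists whose labels conflict, which took no part in choosing the members, were set against them. One carries 2-DG in its title and control in its description, and had a peak in 383 of the 582 members (65.8%, exact binomial 95% interval 61.8 to 69.7). The other carries control in its title and 2-DG in its description, and had a peak in 11 (1.89%, interval 0.947 to 3.36). The first touched 86.9% of members called in 4 lists and 46.9% of those called in 3, and the second 0% of 275 (interval up to 1.33%) and 3.58%. The 383 members touched by the first list had a median mean percentile of 84.3, and the other 199 had 65.5. All 15 of the highest members were among the 383.

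For comparison, each of the 8 lists was left out in turn and set against regions chosen without it. Left-out 2-DG lists touched 98.2%, 95.5%, 52.9% and 86.2% of such gene-body regions, and left-out control lists 4.75%, 1.02%, 2.84% and 5.21%. The value of 65.8% lies within the range of the 2-DG lists and 1.89% within that of the control lists. At gene ends the same pair of lists touched 59.3% and 0% of 216 regions, and between genes 57.5% and 3.04% of 626. Which label of either list is right was not tested. With these lists added by their descriptions 215 regions met the rule of at least 3 2-DG lists and no control list, and by their titles 695 did.

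**Figure D5:**
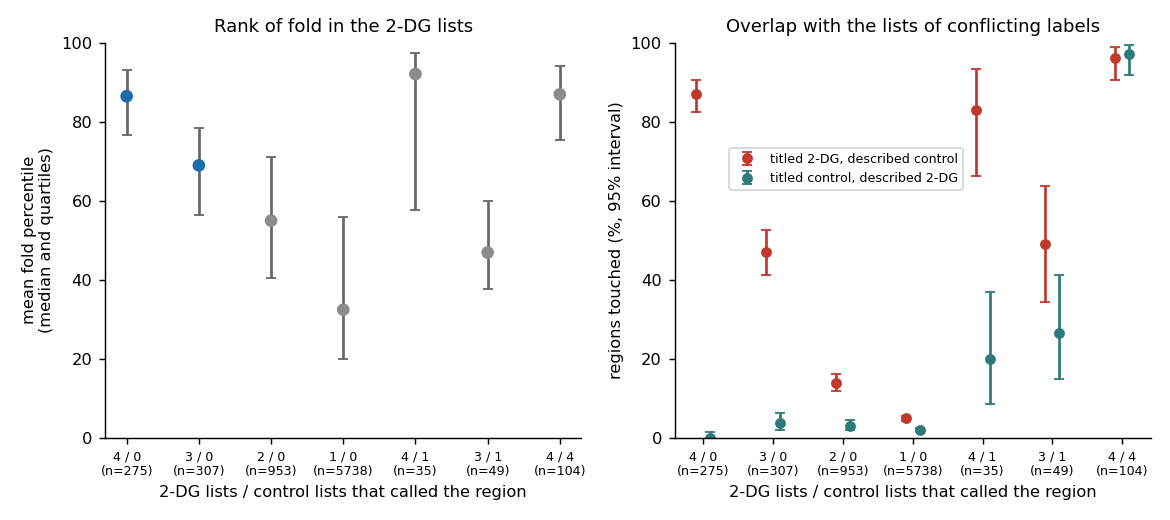
Left, median and quartiles of the mean within-list fold percentile of gene-body regions, by how many 2-DG and control lists called them (members in blue). Right, percent of the same regions touched by each list with conflicting labels, with exact 95% intervals. Members in 4 lists are touched at 86.9% by the list titled 2-DG and at 0% by the list titled control.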

How the data were processed

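Each list holds the peaks of a single sample, as its deposited peak names show. The submitters' processing notes give mm10 and name BWA, Picard, MACS2 and DiffBind without versions. The deposited lists give each summit the authors' fold enrichment over local background (a ratio), its p-value and q-value as -log10, and a score that was used for nothing but a check of the format. The lists end at different q-values, with a lowest -log10 q of 1.32 to 1.77 over the 8 lists, so fold was used only within a list. Distinct intervals on chromosomes 1 to 19 and X were merged, placed on RefSeq gene ends (GRCm38.p6) and ranked by fold. Genes on other chromosomes were left out. Motif letters were counted in RefSeq start windows.

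The members, the 22 gene lists (571 genes, all matched) and the tests were chosen with earlier results of these data known, so no list gives independent support. Genes were named by a rule: hosts of the 15 highest members in 4 lists and of the 5 highest in 3, hosts in any gene list, up to 10 hosts with the most members, 3 members on either side of the 2000-bp limit and the 5 farthest from a gene end. Some hosts that the rule takes are not reported here. Per-list medians were compared with a two-sided exact sign-flip permutation test over 4 lists (16 assignments, 4 comparisons, not adjusted because none could pass). Intervals are exact Clopper-Pearson at 95%. Strand was known for 391 of 520 hosts (75.2%), too few for a check of position along the gene. Python 3.11.15, pandas 2.3.3, NumPy 2.4.6, SciPy 1.17.1 and matplotlib 3.10.9 were used. The code was tested on simulated lists with planted regions. Alternatives are given in the closing section.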

Additional observations from a re-analysis of the deposited data

Results flagged for a closer look

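Values of the 4 lists of a treatment were screened in 11 groups, and in 2 of them 1 list lay far from the others, when chance alone gives about 1 in 20. 2-DG replicate 3 touched 337 members, far below the other 2-DG lists. 2-DG replicate 1 held 15240 peaks, far above the other 2-DG lists. Of the lists with conflicting labels, that with 2-DG in its title touched 65.8% of the members, above every left-out control list. That with control in its title touched 1.89%, within the range of the left-out control lists. The left-out lists were set against regions chosen without them, so the sets are not alike.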

How the results depend on the processing

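Alternatives left the number of members between 215 and 1535, beside 582, and that of hosts between 208 and 1204, beside 520. Members and hosts were 350 and 326 at -log10 q of at least 5, 363 and 339 at fold of at least 5, 275 and 258 in all 4 2-DG lists, 1535 and 1204 in 2 or more, and 215 and 208 with the conflicting lists added by description. Leaving out a list gave 281 to 614 members and 264 to 548 hosts. The fewest were without 2-DG replicates 1 (281 and 264), 2 (288 and 270) and 4 (319 and 298), when all 3 remaining 2-DG lists had to call a region. Other gene-end windows, placing by the middle, -log10 q of at least 2, equal list lengths, the stricter merge, adding the conflicting lists by title and leaving out predicted genes stayed within 1.5 times. The percentile difference from gene ends was -0.34 to 0.34 points without 1 2-DG list, and that from between-gene regions turned to -0.24 at -log10 q of at least 5 and was 0.08 to 4.61 without 1 list. The width difference from between-gene regions was -2.12 bp in all 4 lists, -3.38 bp at -log10 q of at least 5 and 0 to 21.2 bp without 1 list. Peaks of -log10 q of at least 5 in the list titled 2-DG touched 35.4% of members. In each case the cause was not tested. The share of start windows with the element was 8 of 11 by any list's summit and 8 of 16 over all touching members (alternatives chosen after seeing the data). The planned motif search over all members was not run. No paired analysis was possible because the labels give no replicate number shared by the groups. Without read counts, the depth behind a missing peak is unknown.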
